A study of Mus musculus with 4 samples.

Results

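The genes described here encode the proteins of the cytosolic ribosome, measured in mouse embryonic fibroblasts at passage 2, labelled growing, and at passage 7, labelled replicative senescence. Members were the genes whose symbol is Rpl or Rps followed by a digit, with Rplp0, Rplp1, Rplp2 and Rpsa, leaving out the Rps6k kinases, Rps19bp1 and pseudogenes. By this rule 80 genes, 51 of the large and 29 of the small subunit, were found on 123 probes, of 17466 genes with a symbol on the array and 31089 probes that name one. The rule used names only and no measured value, though members were chosen with earlier results of these data known. Mouse embryonic fibroblasts are primary cells from embryos that stop dividing after a limited number of passages in culture. Per the labels, 3 independent cultures were grown in serum-containing medium, with no treatment named, and carried to passage 7, and the RNA of the biological replicates was pooled before the expression measurement; no genotype or strain is given. Each passage has 2 one-colour arrays, and nothing in the labels says that the 2 arrays of a passage came from separate cultures. The p-values below therefore measure only the spread between arrays, which may be technical.

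A ribosome is built from ribosomal RNA and a large set of proteins, each present mostly in a single copy, and cells that grow and divide spend much of their transcription on it. The messenger RNAs of ribosomal proteins are among the most abundant of a mammalian cell. Many of them begin with a C followed by an unbroken run of pyrimidines, the terminal oligopyrimidine tract, through which mTOR signalling and the RNA-binding protein Larp1 set how strongly they are translated. Ribosomal proteins that are not built into ribosomes have been linked to p53, since Rpl5 and Rpl11 can bind and block its inhibitor Mdm2.

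The starts of member transcripts are printed to show the tract that the family is known for. RefSeq start windows of assembly GRCm38.p6 were held for 60 of the 80 members. Each printed sequence covers 30 bases of the coding strand, 15 before the annotated start and 15 from it, with the C and the run of C and T after it in capitals. The first 6 begin with a C and at least 4 further pyrimidines at the annotated start. The last 2, of paralogues described below, do not begin so, though each holds such a run starting within 10 bases after it.
Rpl38, chr11:114668565-114668594, plus strand: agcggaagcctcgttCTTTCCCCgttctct
Rpl15, chr14:18270972-18271001, minus strand: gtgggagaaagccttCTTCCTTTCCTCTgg
Rplp2, chr7:141447636-141447665, plus strand: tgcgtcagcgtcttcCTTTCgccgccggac
Rps6, chr4:86857353-86857382, minus strand: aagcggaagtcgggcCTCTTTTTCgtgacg
Rps10, chr17:27635230-27635259, minus strand: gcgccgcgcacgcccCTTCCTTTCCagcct
Rps18, chr17:33955651-33955680, minus strand: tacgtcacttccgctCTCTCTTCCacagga
Rpl3l, chr17:24727811-24727840, plus strand: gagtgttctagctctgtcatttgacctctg
Rpl22l1, chr3:28805493-28805522, plus strand: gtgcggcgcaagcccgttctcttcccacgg

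Such a tract stood exactly at the annotated start in 12 of the 60 members (20%), against 813 of 27025 genes with a window (3.01%). Searched on the coding strand from any start within 10 bases either side, it was found in 36 members (60.0%) and in 34.4% of all genes. A match is a description of these letters; annotated starts can lie some bases from the start a cell uses. The median log2 change from passage 2 to passage 7, on the 75th-percentile scale defined below, was 0.67 in the 12 members with the tract at the start and 0.60 in the 48 without, so the groups lay close together. With quantile scaling the medians were 0.054 and 0.083.

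Fibroblast identity was read from 11 marker genes on the array, among them Col1a1, Vim and Pdgfrb, and all 11 were well above background on all 4 arrays. Their levels were summed before taking the log2, so the brightest markers weigh most. The log2 of the sum ran from 8.87 to 9.17 at passage 2 and from 9.49 to 10.05 at passage 7. Markers of epithelium lay at -0.49 to -0.25 and -2.26 to -1.71, of endothelium at -2.71 to -2.19 and -1.99 to -1.55, of haematopoietic cells at 0.74 to 0.80 and -0.45 to -0.11, of neural cells at 0.43 to 0.75 and 1.76 to 1.79, and of muscle at -0.83 to -0.41 and -2.76 to -2.38, at passage 2 and 7 in turn. Of these lists 3 of 5, 1 of 3, 2 of 4, 2 of 3 and 2 of 3 genes were above background on all 4 arrays, and Ptprc, which defines haematopoietic cells, was above background on none. Summed levels of the marker lists thus moved with passage, and their part in the ribosomal protein values was not tested. In RNA from whole cultures, fewer cells of a type and less RNA per cell cannot be told apart. All 4 arrays lay on a single slide and no spot was saturated. The 75th percentile of the processed signal, by which each array was scaled, was 1024 and 1404 at passage 2 and 964 and 402 at passage 7, and 65.8% to 72.7% of spots were well above background.

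The question the comparison addresses is how the messenger RNAs of ribosomal proteins differ between growing fibroblasts and fibroblasts at the onset of replicative senescence. Levels are log2 processed signals from which, array by array, the log2 of the 75th percentile was subtracted, so that a level of 0 is a spot at that percentile, and a change is the mean at passage 7 minus the mean at passage 2. A gene was called when limma, with Benjamini-Hochberg adjustment over all 13850 genes tested, gave an adjusted p under 0.05 and the change was at least 2-fold. Of the 80 members, 79 could be tested, each of them well above background on all 4 arrays.

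Few ribosomal protein genes passed the test. Of 79 members, 2 rose, Rpl3l and Rpl37, and none fell by limma, while 9.99% of all genes tested rose, 9.42% fell and 19.4% were called in either direction. At an unadjusted p under 0.05 stood 22 members, against 41.6% of all genes. The fitted change was positive in 75 members and negative in 4, against 60.6% positive among all genes. Its median over the members was 0.65, with quartiles of 0.35 and 0.84 and a range from -0.15 to 1.84, and the median over all genes was 0.20. The members' median thus lay 0.45 above that of all genes. Both passage 7 arrays were above both passage 2 arrays in 58 members (73.4%), against 40.5% of all genes, and both were below in 1 member, Rpl7l1, against 27.7% of all genes.

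Under quantile scaling, which gives every array the same distribution of signals, this shift was gone. The median change of the 79 members was 0.032 and that of all genes 0.023. Positive changes were found in 43 members and negative ones in 36, with 51.3% positive among all genes, and the range was -0.61 to 1.55. The arrays of passage 7 were both above those of passage 2 in 19 members (24.1%; 33.1% of all genes) and both below in 15 members (33.5% of all genes). The 15 were Rpl3, Rpl5, Rpl7, Rpl7l1, Rpl8, Rpl9, Rpl10a, Rpl12, Rpl39, Rpl41, Rps3a1, Rps4x, Rps7, Rps16 and Rps27a. None of these 15 passed the test. Of all 79 members, 5 had an unadjusted p under 0.05, against 39.2% of all genes, and 1, Rpl3l, was called, as higher, where 7.97% of all genes rose, 10.9% fell and 18.9% were called either way. The 2 scalings ordered the members' changes with a Spearman's rho of 0.65 over 79 genes that share the same arrays, given as a description. Rpl8 was read from another of its probes here, the brightest on this scale; the probe used on the 75th-percentile scale had a change of 0.051 with the passage 7 arrays above. The size of the family's shift thus depended on the scaling, and the members named below are given with both.

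**Figure D1:**
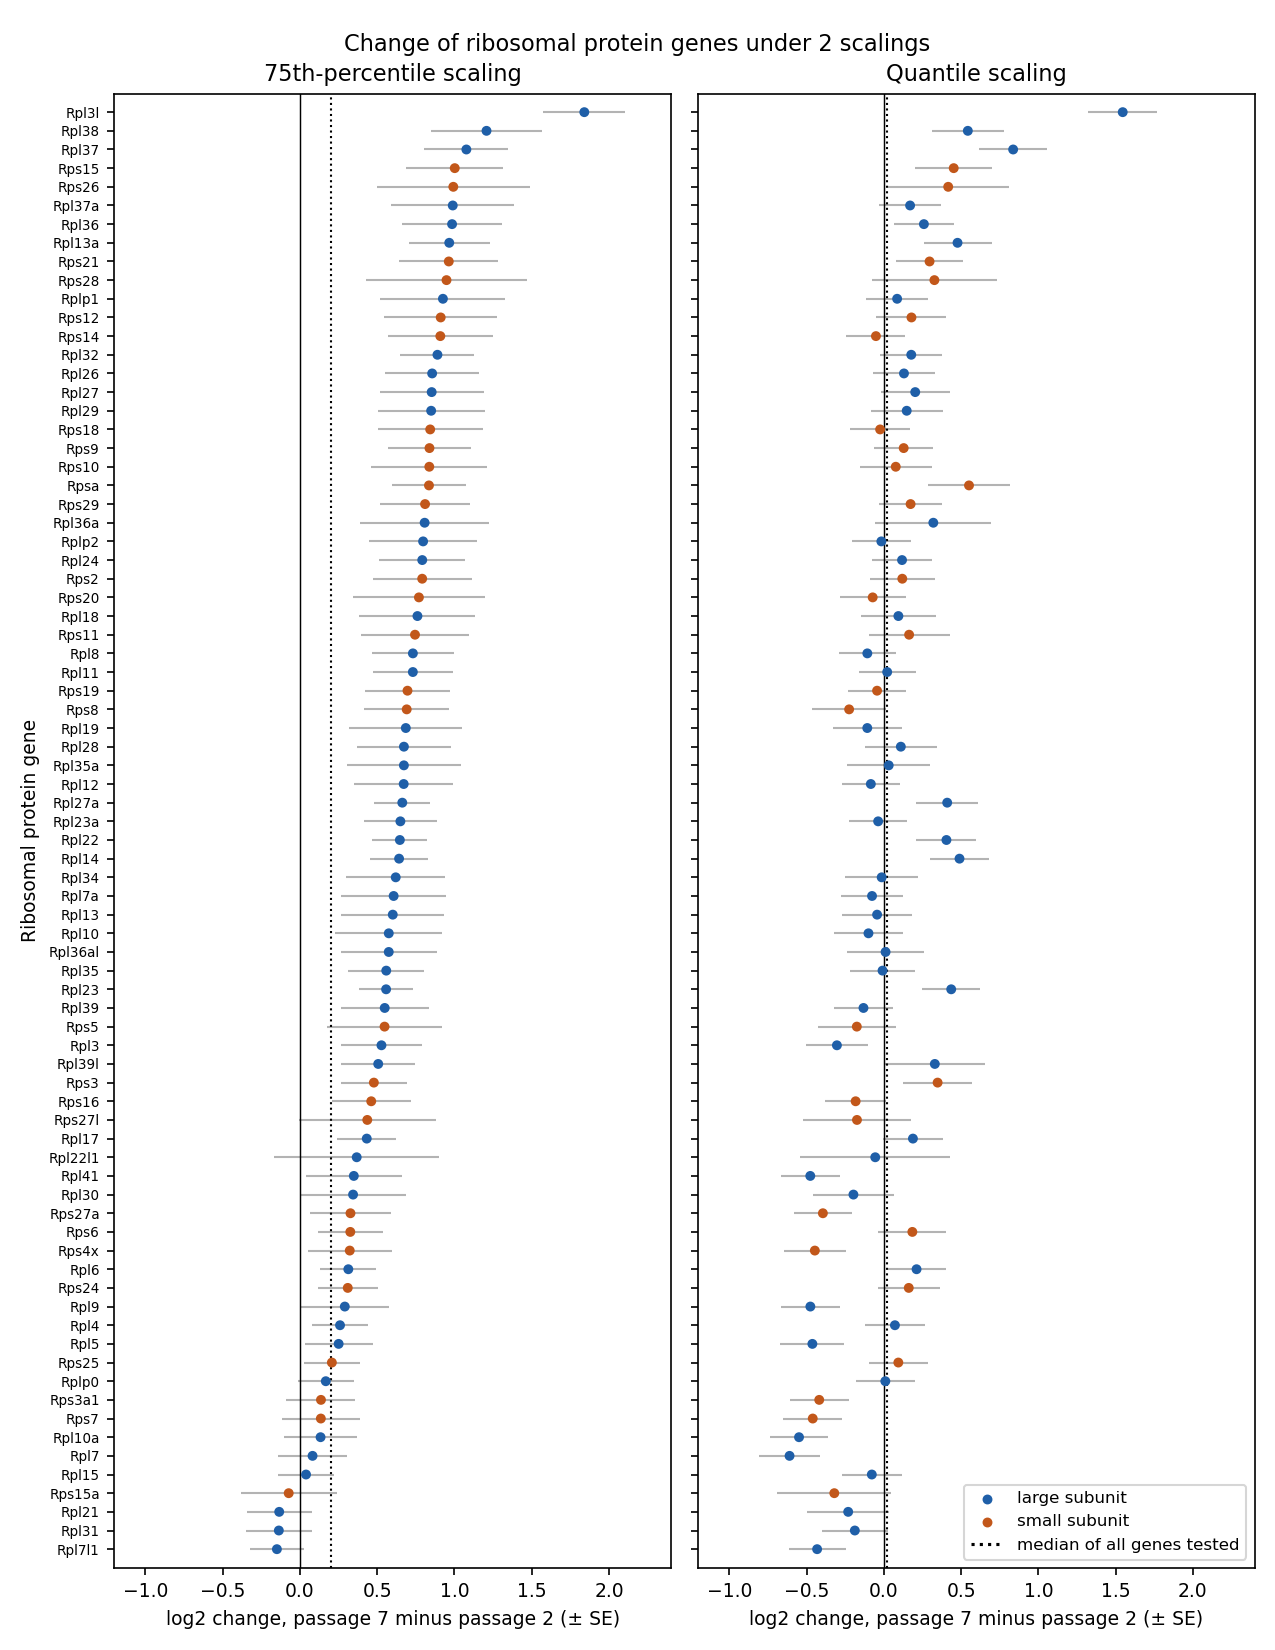
Log2 change from passage 2 to passage 7 of 78 of the 79 ribosomal protein genes tested, each as a point with its standard error, with 75th-percentile scaling at left and quantile scaling at right; blue marks the large and orange the small subunit, and the dotted line is the median of all genes tested. Most points lie to the right of the dotted line at left (median 0.65 against 0.20) and lie around it at right (0.032 against 0.023), with Rpl3l at the top in both.

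The arrays of a passage did not sit together. With 75th-percentile scaling the members' median level stood at 6.40 and 5.66 for passage 2 and at 6.56 and 6.85 for passage 7. The first passage 2 array was therefore closer to the first passage 7 array than to the other array of its own passage. Measured as each array's deviation from the gene's mean over 4 arrays, the medians were -0.073 and -0.59 at passage 2 and 0.14 and 0.46 at passage 7. The first passage 2 array was above the second in 70 of 79 members, and the second passage 7 array above the first in 65. The members' median gap between the 2 arrays of a passage was 0.51 at passage 2 and 0.32 at passage 7, where that of all genes was 0.32 and 0.18. The standard deviation of the members' median level between arrays of a passage was 0.40, beside the median change of 0.65; after taking off the median of all genes it was 0.38, beside 0.45. With quantile scaling the medians of the deviations were 0.053, -0.059, 0.030 and -0.022 in the same order.

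**Figure D2:**
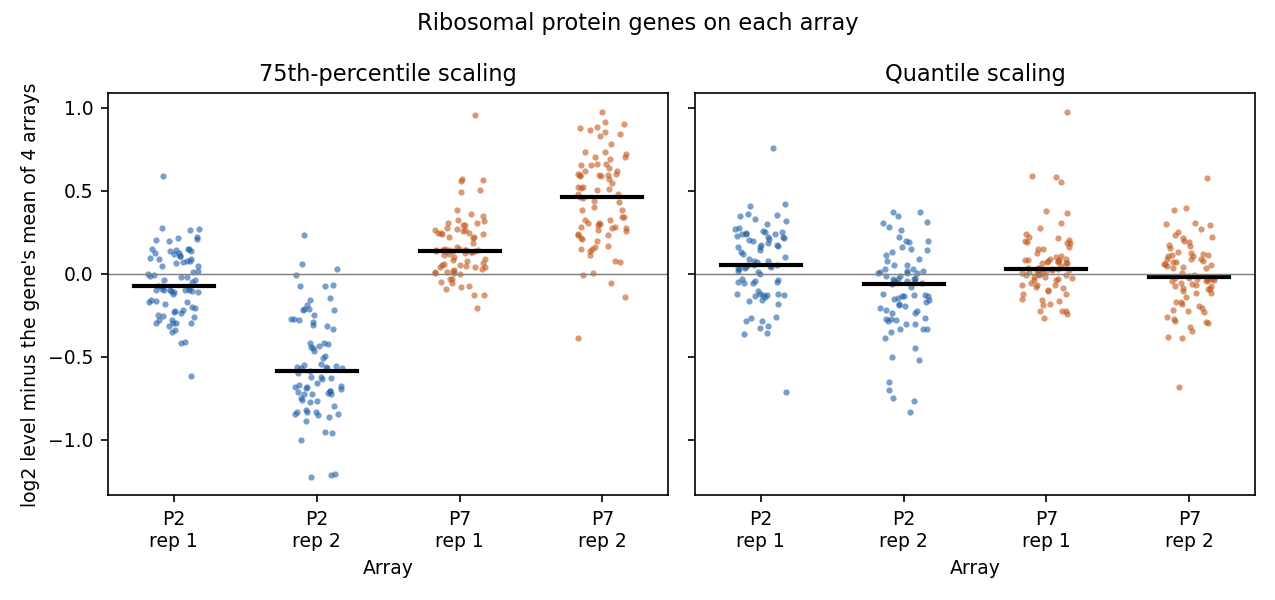
Each point is 1 ribosomal protein gene on 1 array, drawn as its log2 level minus its mean over the 4 arrays; black bars are medians over the 79 members, blue is passage 2 (P2) and orange passage 7 (P7). At left, with 75th-percentile scaling, the bars stand at -0.073, -0.59, 0.14 and 0.46, and at right, with quantile scaling, between -0.059 and 0.053.

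Leaving out single arrays moved the members' median change. It was 0.94 without the first passage 2 array and 0.34 without the second. Without the first and the second passage 7 array it was 0.74 and 0.46. Which members were called also changed with the array left out. A lone array of a passage is then assumed to vary like the pair of the other passage. Counts of calls from such fits are therefore listed only with the dependence on processing, and nothing is concluded from them.

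Most members were read from the brightest spots of the array. Of the 79, 58 lay among the 693 brightest genes, the top 5% by mean level, and the median of the members' processed signals was 86502 and 70897 at passage 2 and 90392 and 46270 at passage 7. Spots this bright were taken from the scan at low gain and scaled up, as a column of the deposited files marks. On the 4 arrays 84, 82, 84 and 75 of the 123 member probes (61.0% to 68.3%) carried that mark, against 1.08% to 2.92% of all probes. The array with the fewest such spots, the second of passage 7, also had the lowest 75th percentile.

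Changes were also read by brightness class, and they did not rise steadily with the level. Members with a mean level over 4, 58 genes, had a median change of 0.71; the 14 between 0 and 4 had 0.32, and the 7 under 0 had 0.51. With quantile scaling the same classes had -0.015, 0.17 and 0.33. The members under 0 include Rpl3l, Rpl37, Rpl39l, Rpsa and Rpl21. Whether such dim probes follow the messenger RNA of their gene was not tested. The 49 members read at low gain on all 4 arrays had a median of 0.73 (quantile scaling -0.024), and the 21 read so on no array 0.33 (0.19). The 211 other genes read at low gain on all 4 arrays had a median of 0.79 (0.16), so that bright genes outside the ribosome lay at a like value on the 75th-percentile scale. The part of the scan gain and of the scaling of bright spots in the members' shift was not tested.

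**Figure D3:**
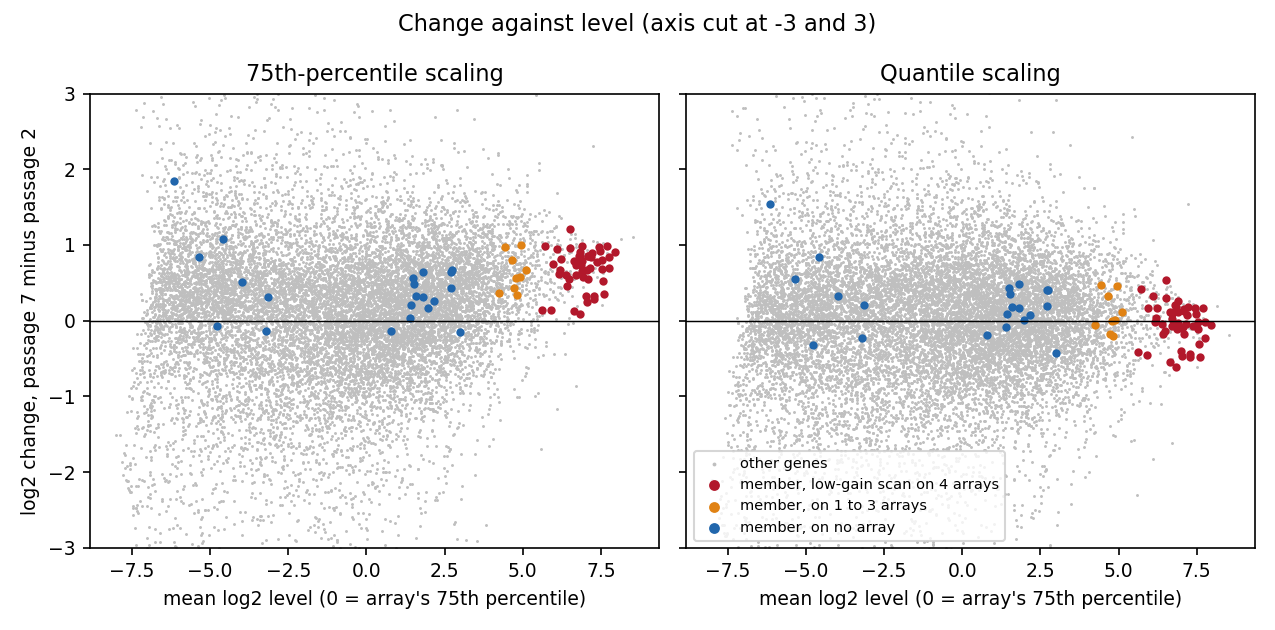
Log2 change from passage 2 to passage 7 against the mean log2 level over the 4 arrays (0 is the array's 75th percentile) for all genes tested in grey and ribosomal protein genes in colour, with 75th-percentile scaling at left and quantile scaling at right; the change axis ends at -3 and 3. Red members, read at low gain on all 4 arrays, lie above 0 at left (median 0.73) and around it at right (-0.024).

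The large subunit carries the peptidyl transferase centre and the exit tunnel, and the small subunit decodes the messenger RNA. The 50 large-subunit members tested had a median change of 0.63, with 47 positive, and the 29 small-subunit members 0.74, with 28 positive. With quantile scaling the medians were 0.017 and 0.094. The 2 subunits thus lay close together on either scale, and the difference between them was not tested. Non-overlapping arrays, higher at passage 7, were found in 37 large-subunit members (74.0%) and 21 small-subunit members (72.4%), beside the 40.5% of all genes.

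Rpl3l encodes a paralogue of the core protein Rpl3 that is known mainly from heart and skeletal muscle. Its levels were -6.78 and -7.39 at passage 2 and -5.21 and -5.28 at passage 7, on a dim probe that was still well above background on all 4 arrays. Its processed signals before scaling were 9.30 and 8.36 at passage 2 and 26.0 and 10.3 at passage 7. Before scaling, the second passage 7 array thus stood close to the passage 2 arrays. After scaling, both passage 7 arrays lay above both passage 2 arrays, by more than the gap within either passage. The log2 change was 1.84 ± 0.26 (SE, 2 arrays a passage), a 3.58-fold rise, with an adjusted p of 0.0144 by limma. With quantile scaling it rose by 1.55 (adjusted p = 0.0092 by limma). In the authors' deposited value table the change was 0.57 (adjusted p = 0.0777 by limma), where it was not called. Rpl3 itself, which every ribosome carries, had levels of 7.47 and 7.12 at passage 2 and 7.57 and 8.08 at passage 7. Those groups did not overlap, but the change of 0.53 ± 0.26 did not pass (adjusted p = 0.203), and with quantile scaling it was -0.30 with the arrays apart in the other direction.

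Rpl37, a small zinc-binding protein of the large subunit, was read from a dim probe that was well above background on all 4 arrays. The probe lay far below the members' median level of 6.42, and whether it follows the Rpl37 messenger RNA was not tested. Its processed signals before scaling were 36.9 and 32.4 at passage 2 and 59.7 and 24.0 at passage 7, an overlap. After scaling, its levels were -4.79 and -5.44 at passage 2 and -4.01 and -4.07 at passage 7. On that scale the groups did not overlap, and the first passage 2 array lay nearer to the passage 7 pair. Its change was 1.08 ± 0.27, or 2.11-fold, with an adjusted p of 0.0496 by limma, just inside both thresholds. With quantile scaling it was 0.84 (adjusted p = 0.0462), under the fold minimum. Leaving out an array kept the call without the first passage 2 array (1.40) and ended it without the second passage 2 array (0.76, adjusted p = 0.0747), the first passage 7 array (1.05, 0.153) and the second passage 7 array (1.1, 0.164).

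Rpl38, a large-subunit protein known from the translation of Hox messenger RNAs in the embryo, was the member with the second largest change. Its levels were 6.30 and 5.50 at passage 2 and 6.85 and 7.37 at passage 7, so that the passages did not overlap but each pair was spread by over 0.5. The change of 1.21 ± 0.36 missed the threshold (adjusted p = 0.0697 by limma), and it was 0.54 with quantile scaling. Without the first passage 2 array it passed (1.61, adjusted p = 0.0418). Its other probe had a change of 0.82, or 0.14 with quantile scaling.

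At the other end of the order stood Rpl7l1, Rpl31 and Rpl21, none of which passed the test. Rpl7l1, a paralogue of Rpl7 that works in ribosome assembly, had levels of 3.11 and 3.01 at passage 2 and 2.89 and 2.93 at passage 7, a change of -0.15 ± 0.17 (adjusted p = 0.556). The passages did not overlap on this probe. The difference of their means was larger than the gap within either passage but smaller than its standard error. Rpl31, which lies near the exit tunnel, had 0.99 and 0.71 against 0.58 and 0.86, and Rpl21, a large-subunit protein, -3.30 and -2.97 against -3.20 and -3.34. Both overlapped between passages (adjusted p = 0.662 and 0.659). With quantile scaling the 3 changes were -0.43, -0.19 and -0.23, and none passed.

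Rpl7, a core protein of the large subunit, gave different values on its probes. The probe with the highest signal had levels of 6.97 and 6.61 at passage 2 and 6.75 and 6.99 at passage 7, which overlapped (0.082 ± 0.22, adjusted p = 0.802; quantile scaling -0.61, adjusted p = 0.0765). A second bright probe gave 0.37 (quantile scaling -0.32). The third, dimmer probe had 3.88 and 3.60 at passage 2 and 2.65 and 2.68 at passage 7, without overlap. In the fit over all 30874 probes it fell by 1.07 ± 0.21 (adjusted p = 0.0347 by limma), and by 1.40 with quantile scaling (0.0146). These probes all carry the same RefSeq transcript, so that the direction for Rpl7 depends on the probe and on the scaling; which of the probes follows the Rpl7 messenger RNA was not tested.

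Read probe by probe, 121 of the 123 member probes were tested, 1 rose, that of Rpl3l, and 1 fell, that of Rpl7, where 17.2% of all probes were called. The same 2 were called with quantile scaling, against 17.1% of all probes. The arrays were apart and higher at passage 7 for 89 member probes (38.4% of all probes) and lower for 5 (27.4%); with quantile scaling they were higher for 31 (32.3%) and lower for 25 (32.2%). Which member probes were called changed when single arrays were left out, and no counts are given for those fits. More than 1 probe was tested for 27 members. The sign of the change was the same at all probes in 24 of them, the exceptions being Rpl7, Rpl7l1 and Rpl15, and the range between probes of a gene had a median of 0.15 and was under 0.25 in 23. Rpl7 had a range of 1.44 and Rpl38, the next, 0.39. Agreement between probes of a gene shows the precision of the spots on the same arrays and does not add replicates.

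**Figure D4:**
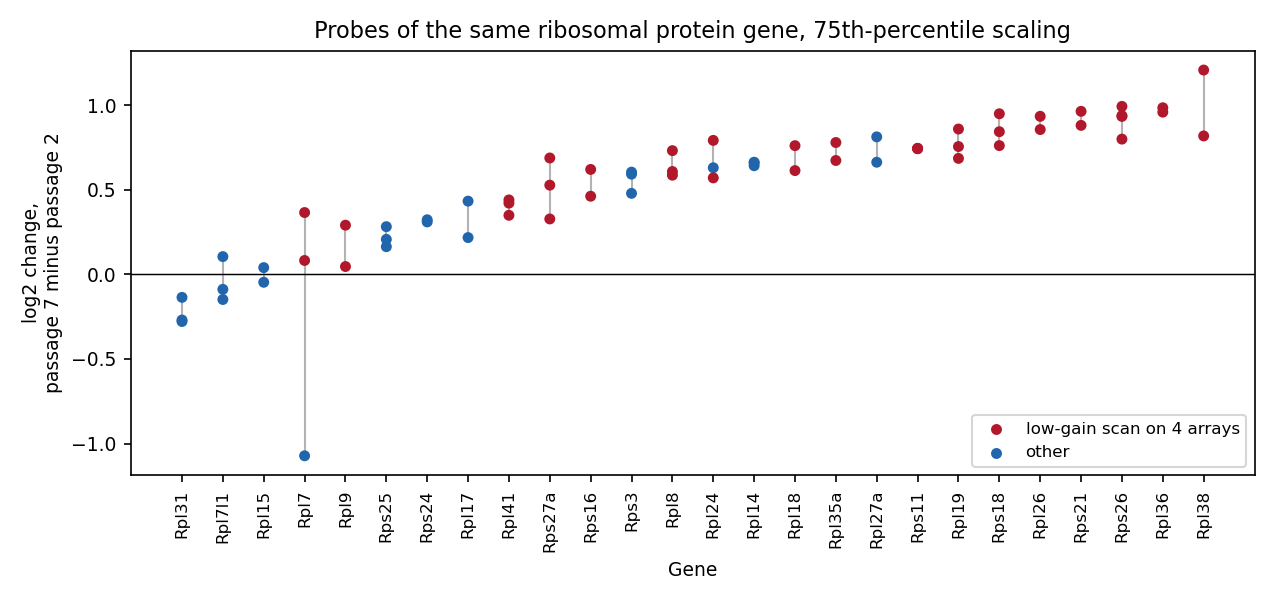
Log2 change from passage 2 to passage 7, with 75th-percentile scaling, at every tested probe of 26 of the 27 ribosomal protein genes with more than 1; a grey line joins probes of a gene, and red marks probes read at low gain on all 4 arrays. Probes of a gene lie close together (median range 0.15) except those of Rpl7, where the lowest probe stands at -1.07.

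Several ribosomal proteins have a paralogue, a second gene whose product can take the same place. Rpl22, which also binds RNA outside the ribosome, had 2.36 and 2.42 at passage 2 and 3.10 and 2.97 at passage 7. The pairs were tight and did not overlap. The change of 0.65 ± 0.18 missed the adjusted p threshold (adjusted p = 0.0597 by limma) and the fold minimum, and was 0.41 with quantile scaling. Its paralogue Rpl22l1 had 4.83 and 3.28 against 4.46 and 4.39, so that the first passage 2 array was the highest and the second the lowest of all 4 (0.37 ± 0.53, adjusted p = 0.636; quantile scaling -0.056).

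Rpl36a and Rpl36al encode nearly identical large-subunit proteins, and binding of a messenger RNA to the probe of the other gene was not tested. The levels of Rpl36a were 4.80 and 3.69 at passage 2 and 5.22 and 4.88 at passage 7 (0.81 ± 0.42, adjusted p = 0.213; quantile scaling 0.32), and those of Rpl36al were 5.01 and 4.22 against 5.20 and 5.18 (0.57 ± 0.31, 0.230; 0.011). On the 75th-percentile scale the passages were apart in both, with quantile scaling they overlapped in both, and the passage 2 arrays were spread by more than the first of them lay below passage 7. Rpl39, a short protein of the exit tunnel, had 6.505 and 5.92 against 6.58 and 6.95 (0.55 ± 0.28, adjusted p = 0.214; quantile scaling -0.13). Rpl39l, its paralogue known from the testis, had -4.27 and -4.19 against -3.47 and -3.97, apart but on a dim probe (0.51 ± 0.24, adjusted p = 0.180; 0.33).

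Rpl10, which joins the large subunit late in its assembly, had 7.09 and 6.22 at passage 2 and 7.08 and 7.38 at passage 7, an overlap (0.57 ± 0.35, adjusted p = 0.277; quantile scaling -0.099). The X-linked small-subunit gene Rps4x had 7.42 and 6.84 against 7.31 and 7.60, which overlapped as well (0.32 ± 0.27, 0.419; -0.45). Rps27l, a paralogue of Rps27 known as a p53 target, had 5.002 and 4.17 at passage 2 and 5.02 on the second passage 7 array. Its spot on the first passage 7 array was marked as an outlier and dropped, so its change of 0.44 ± 0.44 rests on 3 arrays (adjusted p = 0.509; quantile scaling -0.17).

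The stalk of the large subunit, which recruits the elongation factors, is made of Rplp0 as its base and pairs of Rplp1 and Rplp2. Rplp0, often used as a reference gene, had levels of 1.95 and 1.81 at passage 2 and 1.99 and 2.10 at passage 7. The passages were apart by little and the change was 0.17 ± 0.18 (adjusted p = 0.523; quantile scaling 0.0098). Rplp1 had 7.25 and 6.80 against 7.44 and 8.46 (0.93 ± 0.40, adjusted p = 0.158; 0.086). Rplp2 had 7.47 and 6.82 against 7.61 and 8.28 (0.80 ± 0.35, adjusted p = 0.160; -0.016). In both stalk partners the second passage 7 array was the highest and stood well above the first.

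Rpsa, a small-subunit protein also known as the laminin receptor, had -5.55 and -5.98 at passage 2 and -4.79 and -5.07 at passage 7 on its dim probe. The passages did not overlap. The change of 0.84 ± 0.24 missed the adjusted p threshold (adjusted p = 0.0665 by limma) and the fold minimum, and was 0.55 with quantile scaling.

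Among the large-subunit proteins linked to Mdm2, Rpl5 had 7.11 and 6.73 at passage 2 and 7.09 and 7.25 at passage 7, which overlapped (0.25 ± 0.22, adjusted p = 0.436). With quantile scaling its change was -0.46, with both passage 7 arrays below. Its partner in the 5S RNA particle, Rpl11, had 6.54 and 6.15 against 6.85 and 7.30, apart (0.73 ± 0.26, adjusted p = 0.105; quantile scaling 0.022). Rpl23, also an Mdm2-binding protein, had 1.15 and 1.27 against 1.77 and 1.77, the tightest of the pairs named here at passage 7 (0.56 ± 0.18, adjusted p = 0.0804; 0.44). None of these proteins' genes passed the test in either scaling.

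Rps6, the substrate of the S6 kinases below mTOR, had 1.26 and 1.57 at passage 2 and 1.63 and 1.86 at passage 7 (0.33 ± 0.21, adjusted p = 0.306; quantile scaling 0.18). Rps19, the gene most often mutated in Diamond-Blackfan anaemia, had 7.03 and 6.55 against 7.27 and 7.71 (0.70 ± 0.27, adjusted p = 0.129; -0.044). In both genes the nearest arrays of the 2 passages were apart by less than the gap between the passage 2 arrays.

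Just outside the adjusted p threshold on the 75th-percentile scale stood the large-subunit genes Rpl32 at 0.89 (adjusted p = 0.0572), Rpl13a at 0.97 (0.0581) and Rpl27a at 0.66 (0.0588). All of them missed the fold minimum as well. With quantile scaling their changes were 0.18, 0.48 and 0.41.

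The other genes of translation were read from a list of 59 factors on the array, all tested. None was called as higher and 1 as lower by limma, against 19.4% of all genes called. That gene was Eif4g2, an initiation factor that does not bind the cap-binding protein Eif4e (adjusted p = 0.0228 by limma). Its levels were -6.74 and -7.13 at passage 2, and it was not well above background on either passage 7 array. It therefore passed the filter only through passage 2, no fold is given, and the call is not read as a fall. With another background correction its change had the other sign. The list's median change was 0.21, close to the 0.20 of all genes, with 25 factors higher without overlap, a share of 42.4% near the 40.5% of all genes, and 11 lower, where 27.7% of all genes were. With quantile scaling the median was -0.19 and 2 of 58 tested fell, Larp4 and Pabpc1, where 10.9% of all genes fell. Quantile scaling read Eif4g2 from another probe, which did not pass the filter.

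The brightest factors lay beside the ribosomal proteins. Eef1a1, which brings aminoacyl-tRNA to the ribosome, had levels of 7.20 and 6.98 at passage 2 and 7.47 and 7.88 at passage 7 (0.58 ± 0.23, adjusted p = 0.130), and with quantile scaling its change was -0.21. Eef2, the translocase, had 7.48 and 7.04 against 7.51 and 8.27 (0.63 ± 0.33, 0.224; -0.23), and Tpt1, whose messenger RNA also carries a terminal oligopyrimidine tract, had 7.38 and 6.95 against 7.47 and 8.23 (0.68 ± 0.33, 0.193; -0.16). In all 3 the second passage 7 array was the highest, and the sign of the change turned with the scaling. Pabpc1, the poly(A)-binding protein, went the other way, with 5.95 and 5.48 against 5.14 and 5.33 and no overlap. It did not pass on the 75th-percentile scale (-0.48 ± 0.24, adjusted p = 0.205) and fell by 1.09 with quantile scaling (adjusted p = 0.0147 by limma). Fau, a ribosomal protein made as a fusion with a ubiquitin-like domain and outside the naming rule, had a change of 1.04 (adjusted p = 0.0872), or 0.22 with quantile scaling, and Rack1, a scaffold on the small subunit, 0.31 (0.307) and 0.34.

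The mitochondrial ribosome, which translates the messages of mitochondrial DNA, served as the group most alike in function. Of its 75 genes on the array 72 were tested, 3 rose, Mrps34, Mrps21 and Mrpl38, and none fell, against the 9.99% and 9.42% of all genes. The log2 changes were 1.38 ± 0.27 for Mrps34 (adjusted p = 0.0279), 1.28 ± 0.32 for Mrps21 (0.0491) and 1.02 ± 0.18 for Mrpl38 (0.0231). Quantile scaling called 1 as higher and 1 as lower, where 7.97% of all genes rose and 10.9% fell. On the 75th-percentile scale 62 of the 72 changes were positive, against 60.6% of all genes. Both passage 7 arrays lay above both passage 2 arrays in 46 (63.9%), beside 73.4% of the cytosolic members and 40.5% of all genes. With quantile scaling these shares were 41.7%, 24.1% and 33.1%. The group's median change was 0.50, and 0.26 with quantile scaling. Its median thus lay below that of the cytosolic proteins on the first scale and above it on the second. The difference between the 2 groups was not tested.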

How the data were processed

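Each passage has 2 custom Agilent arrays hybridised with Cy3-labelled RNA. Per the file headers, Feature Extraction 10.5.1.1 made each spot's intensity from merged scans at high and low gain, and the deposited processed signal is background-subtracted and not normalised between arrays. The authors' value table holds log2 values; it follows the log2 median intensity of each array (r from 0.9986 to 1.0; column medians 6.30, 6.30, 6.24 and 6.14), runs in the same direction, and its normalisation and centring are not given in the sources used here. Per the submitters' processing notes limma was used, with no version.

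Probes were named by RefSeq accession through assembly GRCm38.p6 (31089 of 31850 matched); the array design was made on another build. Outlier spots (14 to 61 per array) were dropped, spots of a probe averaged, and each gene was read from its probe with the highest mean. Kept were the 13850 genes that in at least 1 passage were well above background on both of its arrays. Tests were two-sided, by lmFit and eBayes of limma 3.58.1 (R 4.3.3) on all 4 arrays without covariate, and were first tested on simulated data. An exact permutation test of 2 against 2 arrays could not pass, so none was used. The number of arrays limits the precision.

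Named were members called, the 3 largest and 3 smallest changes, paralogue pairs, stalk genes with Rpsa, Rpl5, Rpl11, Rpl23, Rps6 and Rps19, and called factors with Eef1a1, Eef2, Tpt1 and Pabpc1. Fau, Rack1 and members just outside the adjusted p threshold were added after their values were seen. Members and lists were chosen with earlier results of these data known. Alternatives were other scalings, background correction, filters, probe rules, a block for the replicate number, and fits without 1 array. Members absent from the match, such as Rps27 and Rps13, were not analysed here. Some genes are not reported by name here.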

Additional observations from a re-analysis of the deposited data

How the results depend on the processing

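Over 31 named genes and up to 14 settings each, 346 values kept direction and side of the threshold, 20 lost and 8 gained a call, and 57 changed sign. The 2 member genes called became 1 (Rpl3l) under quantile scaling, cyclic loess, no filter on dim probes and, chosen after seeing the data, centring on the member probes, and 0 in the authors' deposited table and with normexp, where no gene of any kind was called; leaving out an array gave 1 to 17. The 2 member probes called became 1 in the authors' deposited table and with centring on member probes. The 1 translation factor became 2 with quantile and median scaling, 0 in the authors' deposited table, 3 with no fold minimum, and 0 to 2 without an array; the 3 mitochondrial genes became 5 with no fold minimum and 0 to 19 without an array. The median change of members was 0.032 (quantile), 0.049 (loess), 0.19 (authors' deposited table) and 0.21 (normexp); relative to all genes it was 0.0084, 0.048 and -0.28 with quantile, loess and normexp. Genes called of all tested were 2689, against 3003 with median scaling, 2083 in the authors' deposited table and 1771 with no filter. Counts from fits without an array rest on 1 array in a passage, whose spread cannot be measured, so nothing about the gene lists is concluded from them. The cause of the differences between settings was not tested.

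The replicate numbers are shared by the passages, but nothing says they pair arrays: deviations of same-numbered arrays correlated at -0.17 over 13811 genes and -0.14 over members. With the replicate block 1 member gene (Rpl3l), 0 member probes, 0 translation factors and 0 mitochondrial genes were called, with 1173 genes in all.

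Values that changed sign, none of them called before except Eif4g2, were as follows. Quantile scaling gave Rpl3 -0.30, Rpl7 -0.61, Rpl22l1 -0.056, Rpl39 -0.13, Rpl10 -0.099, Rps4x -0.45, Rps27l -0.17, Rplp2 -0.016, Rpl5 -0.46, Rps19 -0.044, Eef1a1 -0.21, Eef2 -0.23 and Tpt1 -0.16. Cyclic loess gave Rpl3 -0.29, Rpl7 -0.65, Rpl22l1 -0.056, Rpl39 -0.14, Rpl10 -0.17, Rps4x -0.46, Rps27l -0.0032, Rplp0 -0.035, Rplp2 -0.022, Rpl5 -0.50, Rps19 -0.071, Eef1a1 -0.22, Eef2 -0.19 and Tpt1 -0.13. The authors' deposited table gave Rpl3 -0.12, Rpl7 -0.36, Rpl39 -0.0036, Rpl10 -0.091, Rps4x -0.20, Rplp0 -0.12, Rpl5 -0.48 and Eef1a1 -0.067. Normexp gave Rpl21 1.02, Rpl3 -0.047, Rpl7 -0.34, Rpl22l1 -0.096, Rpl39 -0.019, Rpl10 -0.071, Rps4x -0.13, Rps27l -0.58, Rplp0 -0.27, Rpl5 -0.45, Rps6 -0.088, Eif4g2 1.90 and Eef1a1 -0.0015. Median scaling gave Rpl7 -0.087 and Rplp0 -0.0014, and the mean of all probes Rpl7 -0.21. With each array left out in turn, Rpl31 ran from -0.28 to 0.0046, Rpl21 from -0.30 to 0.034, Rpl7 from -0.098 to 0.26 and Rpl22l1 from -0.40 to 1.14.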
